A study of Mus musculus with 10 samples.

Results

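The genes described here are 9 enzymes of bile acid synthesis and conjugation: Cyp7a1, Cyp8b1, Cyp27a1, Cyp7b1, Cyp39a1, Hsd3b7, Akr1d1, Slc27a5 and Baat. They were chosen by name, and each symbol matched 1 of the 41388 Ensembl genes counted in liver RNA. All 9 were among the 13444 genes that exceeded 1 CPM, the count scaled to the library total, in at least 1 library and were tested. Liver RNA was sequenced from 10 C57B/6J mice aged 12 weeks, each giving 1 library. There were 2 WT fast-refeed mice, fasted for 22 h and then refed for 2 h, 3 WT fast mice, fasted for 24 h, and 5 NAMPT LKO fast mice, also fasted for 24 h. WT mice carried floxed Nampt alleles (NAMPT fl/fl) without Cre, and NAMPT LKO littermates carried the same alleles together with Albumin-cre. The study describes the excision as specific to hepatocytes, and Nampt in separate cell types was not measured here. The study's text describes random-fed controls and a shorter fast than these labels do, and the labels were followed here. The design asks how these enzymes differ between fasted and refed WT livers and whether they differ in fasted livers that lack hepatocyte NAMPT, an enzyme of NAD+ salvage.

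Hepatocytes make bile acids from cholesterol. In the classical pathway CYP7A1, the rate-limiting enzyme, hydroxylates the sterol ring of cholesterol, and CYP8B1 then adds the hydroxyl group that turns the product toward cholic acid. In the alternative pathway CYP27A1 oxidises the side chain first and CYP7B1 hydroxylates the ring of the resulting oxysterol, both pathways share later ring and side chain steps, and SLC27A5 and BAAT finish by coupling bile acids to coenzyme A and then, in mice, mostly to taurine. Bile acids returning to the liver repress the pathway through the receptor FXR (Nr1h4).

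Cyp7b1 was lower, and Cyp8b1 higher in mean level, in both fasted groups than in refed livers, and the promoter of Cyp8b1 is shown because it is the 1 of these 2 genes with a window in the reference table. The deposited coordinates place Cyp8b1 (ENSMUSG00000050445) on the minus strand of chromosome 9 of GRCm38, from 121914356 to 121916305, with an exonic length of 1950 bases, equal to its span. RefSeq promoter windows of GRCm38.p6 were found for 4 of the 9 genes (Cyp8b1, Cyp27a1, Hsd3b7 and Akr1d1). The 250 bases before the Cyp8b1 start, chr9:121916306-121916555 on the minus strand, are given 5′ to 3′, with capitals marking the matches to 2 motifs.
Cyp8b1: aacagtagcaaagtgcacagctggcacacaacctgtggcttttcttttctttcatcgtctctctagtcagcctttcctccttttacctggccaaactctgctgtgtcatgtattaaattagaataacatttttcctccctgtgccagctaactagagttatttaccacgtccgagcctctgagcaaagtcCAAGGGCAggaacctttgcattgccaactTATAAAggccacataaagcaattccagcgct

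The first match is to CAAGGNCA, the half-site bound by NR5A receptors such as LRH-1 (Nr5a2), and begins at position -60, where -1 is the last base before the start. The second is TATAAA, the core of a TATA box, at position -31. Both motifs were searched on both strands and do not overlap here. CAAGGNCA occurred in 5.53% and TATAAA in 12.4% of 32817 mouse promoter windows of this length. Neither occurred in the windows of Cyp27a1, Hsd3b7 and Akr1d1. AGGTCA, a nuclear receptor half-site, occurred in the Akr1d1 window only, at positions -232 and -210, and in 14.0% of all windows. TGTTTAC (forkhead, 3.16% of windows) and TTANGTAA (D-box, 2.06%) occurred in none of the 4. These matches describe the letters of the windows and were not tested as binding sites.

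Total counts ranged from 30603080 to 43434139 per library. Nampt was 12.1, 14.0, 11.8, 12.5 and 15.3 CPM in the 5 NAMPT LKO fast livers, 63.0, 73.4 and 141 CPM in WT fast livers and 78.0 and 67.8 CPM in WT fast-refeed livers, so every NAMPT LKO liver lay below every WT liver. Hepatocyte markers summed to 58893 CPM or more in every library. Of 5 pancreas markers, Prss2, Cpa1, Pnlip and Ctrb1 reached at most 0.0641 CPM in any library and Cela1 was at 3.62 to 7.17 CPM. Of 5 markers of fat cells, Adipoq, Plin1, Lep and Cfd reached at most 1.70 CPM and Car3 was at 275 to 839 CPM. NAMPT LKO fast mouse 5 stood apart from the other libraries. Mitochondrially encoded transcripts took 21.1% of its counts against 7.42 to 12.9% in the other 9, and the rank correlation across genes of its log2 levels, each relative to the gene's mean over all libraries, with GC content was -0.56 against -0.03 to 0.27. Values of the 9 genes that turned or gained a call without this mouse are therefore given both ways.

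Levels per transcript length (RPKM, TMM-scaled) differed widely among the 9 genes. In WT fast-refeed livers Cyp8b1 was the most abundant, at 299 ± 1.21 RPKM (SD, n = 2), and Cyp39a1, which hydroxylates a brain-derived oxysterol, the least, at 10.6 ± 1.74 RPKM. Slc27a5 followed Cyp8b1 at 196 ± 6.45, then came Cyp27a1 at 175 ± 1.64, Baat at 127 ± 0.171, Cyp7b1 at 71.0 ± 11.5 and Cyp7a1 at 57.4 ± 4.95 RPKM. Hsd3b7 and Akr1d1, which carry out the ring steps common to both pathways, were at 46.2 ± 0.625 and 44.9 ± 2.19 RPKM, and their libraries overlapped. The order of the means kept Cyp8b1 first and Cyp39a1 last in all 3 groups. Cyp7b1 had rank 5 of the 9 in refed livers and rank 8 in both fasted groups, at 30.2 ± 4.04 RPKM in WT fast livers (n = 3) and 27.9 ± 7.67 RPKM in NAMPT LKO fast livers (n = 5). In both fasted groups Slc27a5 overlapped Cyp27a1, and the genes from Hsd3b7, Cyp7a1, Akr1d1 to Cyp7b1 overlapped their neighbours in the order. In NAMPT LKO fast livers Cyp7b1 (16.2 to 37.3 RPKM) also overlapped Cyp39a1 (11.7 to 27.8 RPKM), and Baat overlapped Cyp7a1. The per-length level of Hsd3b7 is uncertain: 3523 of its 6154 annotated exonic bases are shared with Setd1a on the same strand, where reads cannot be assigned to 1 gene.

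The 9 genes together summed to 2474 and 2584 CPM in the refed livers, 3367, 3202 and 2636 CPM in WT fast livers and 3256, 3071, 3007, 2862 and 2576 CPM in NAMPT LKO fast livers. The lowest NAMPT LKO fast liver was mouse 5, and its sum fell between those of the refed livers.

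**Figure D1:**
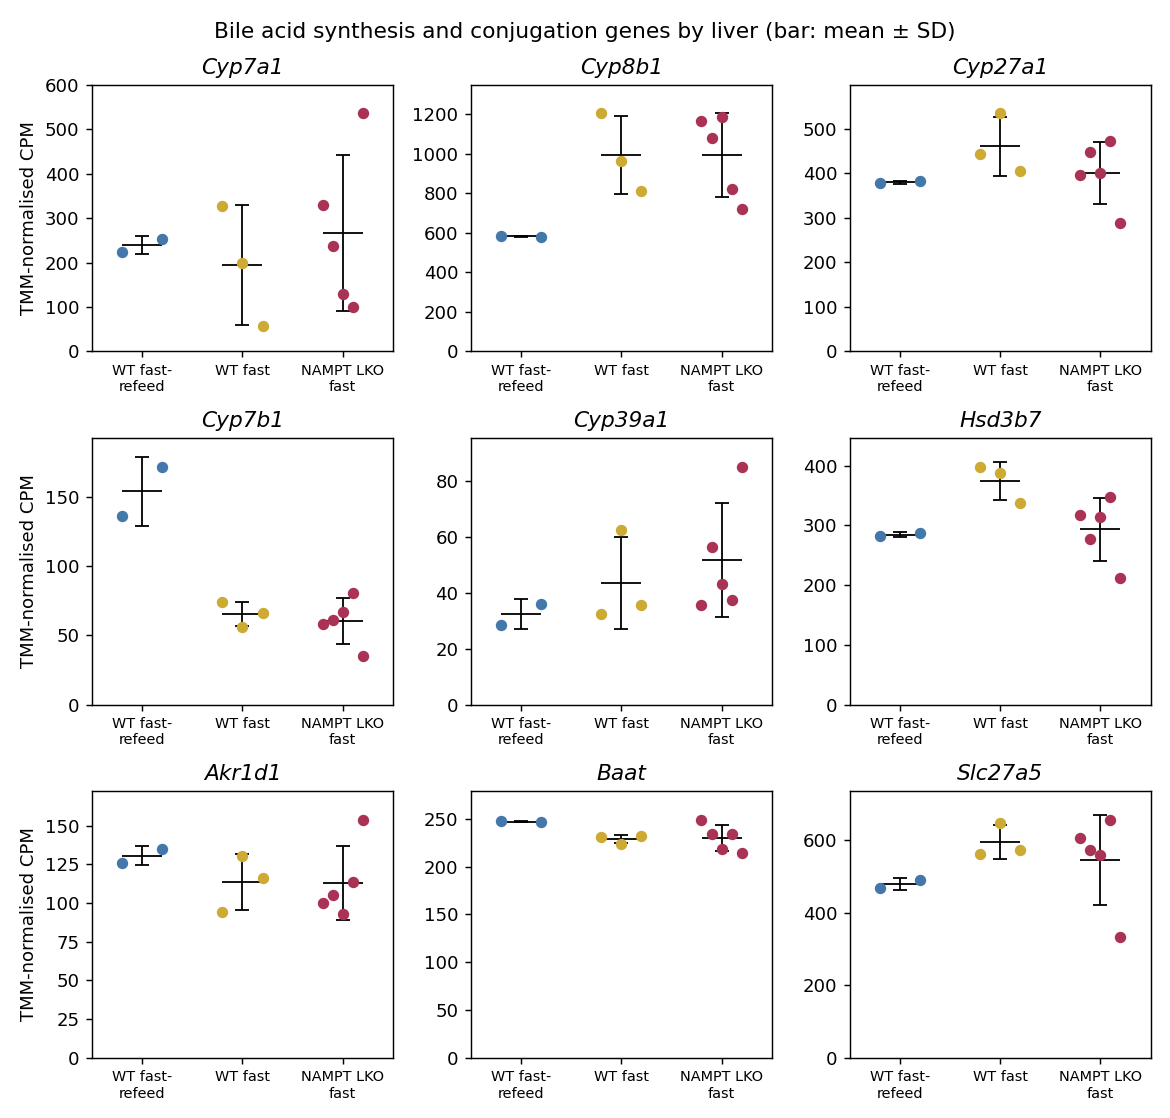
TMM-normalised CPM of each of the 9 genes (vertical axis, from 0) in every liver, by group (horizontal axis), with the mean and SD as bars. Cyp7b1 separates the 2 refed livers (136 and 171 CPM) from all 8 fasted livers (35.1 to 80.8 CPM), Cyp8b1 separates them in the other direction, and Cyp7a1 spreads widely within both fasted groups.

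In WT livers, fasting was compared with refeeding first. All mice had been fasted, so a change during fasting and the opposite change on refeeding cannot be told apart. Of the 9 genes, 1 was called (Cyp7b1, lower), with 0.05 as the limit on the adjusted p (Benjamini-Hochberg) of edgeR's quasi-likelihood test. Without NAMPT LKO fast mouse 5 in the fit, 3 of the 9 were called (Hsd3b7 and Cyp8b1, both higher, beside Cyp7b1). Of all genes tested, 7.04% were called with all libraries and 16.7% without that mouse. The WT fast and WT fast-refeed values did not overlap for 6 of the 9 genes, 4 higher and 2 lower in WT fast livers, where 49.7% of all genes did not overlap with 2 libraries in 1 of the groups. The median log2 fold change of the 9 genes was 0.28, and that of all genes tested was 0.037.

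Cyp7b1, the oxysterol hydroxylase of the alternative pathway, was 136 and 171 CPM in WT fast-refeed livers and 73.7, 56.2 and 66.1 CPM in WT fast livers. The fasted values were all below the lower refed value. Mean levels were 154 ± 25.0 (SD, n = 2) and 65.3 ± 8.75 CPM (SD, n = 3), 2.35-fold lower in WT fast livers (log2 fold change -1.24, SE 0.27, adjusted p = 0.0197). The call was lost without WT fast mouse 2 (adjusted p = 0.0751), WT fast-refeed mouse 1 (0.0749) or WT fast-refeed mouse 2 (0.202), and the adjusted p ranged from 0.000234 to 0.202 over 19 alternatives, 16 of which called the gene. Leaving out a refed mouse leaves a single library, which is then assumed to vary like the other groups.

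Cyp8b1 was 584 and 581 CPM in WT fast-refeed livers and 1203, 960 and 812 CPM in WT fast livers. Every fasted liver lay above both refed livers, yet the gene did not pass the test (log2 fold change 0.77, SE 0.24, adjusted p = 0.0792). It passed in 4 of 19 alternatives, which were DESeq2 (adjusted p = 0.0180), voomWithQualityWeights (0.00234), the fit of the 2 groups alone (0.0418) and the fit without NAMPT LKO fast mouse 5 (0.0224), and its adjusted p ranged from 0.00234 to 0.376. The log2 fold change stayed between 0.59 and 0.88 in all 19.

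Cyp7a1 varied more than any other of the 9 genes within both fasted groups. It was 225 and 254 CPM in WT fast-refeed livers but 328, 199 and 58.3 CPM in WT fast livers, a 5.62-fold range among 3 mice, with a coefficient of variation of 69.1%. The refed values fell inside this range, and the difference was far from the threshold (log2 fold change -0.30, SE 0.71, adjusted p = 0.847). Without WT fast mouse 3 the log2 fold change was 0.13. A change of Cyp7a1 was thus not detectable against this spread.

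The other enzymes did not pass edgeR's quasi-likelihood test with all libraries in the fit. Hsd3b7 was 282 and 287 CPM in refed livers and 398, 388 and 338 CPM in WT fast livers (log2 fold change 0.40, SE 0.19, adjusted p = 0.243). Its groups did not overlap, and it passed the test without NAMPT LKO fast mouse 5 (adjusted p = 0.0397, with a range of 0.0112 to 0.586 over the alternatives). Cyp27a1, the mitochondrial enzyme that opens the alternative pathway, was 377 and 382 CPM refed and 404 to 534 CPM fasted (log2 fold change 0.28, adjusted p = 0.448). Slc27a5, the bile acid coenzyme A ligase, was 468 and 490 CPM refed and 563 to 648 CPM fasted (0.31, adjusted p = 0.471). Both were above the refed range in each WT fast liver, and neither passed that test. With voomWithQualityWeights, which the study's methods name, Cyp27a1 (adjusted p = 0.0455), Slc27a5 (0.0431) and Hsd3b7 (0.0112) passed. That fit called 3331 of 13444 genes. Baat, the amino acid transferase, showed the tightest values, 247 and 247 CPM refed and 224 to 232 CPM fasted (log2 fold change -0.11, SE 0.11, adjusted p = 0.604). Akr1d1 (log2 fold change -0.20, adjusted p = 0.609) and Cyp39a1 (0.43, adjusted p = 0.550) overlapped between groups.

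**Figure D2:**
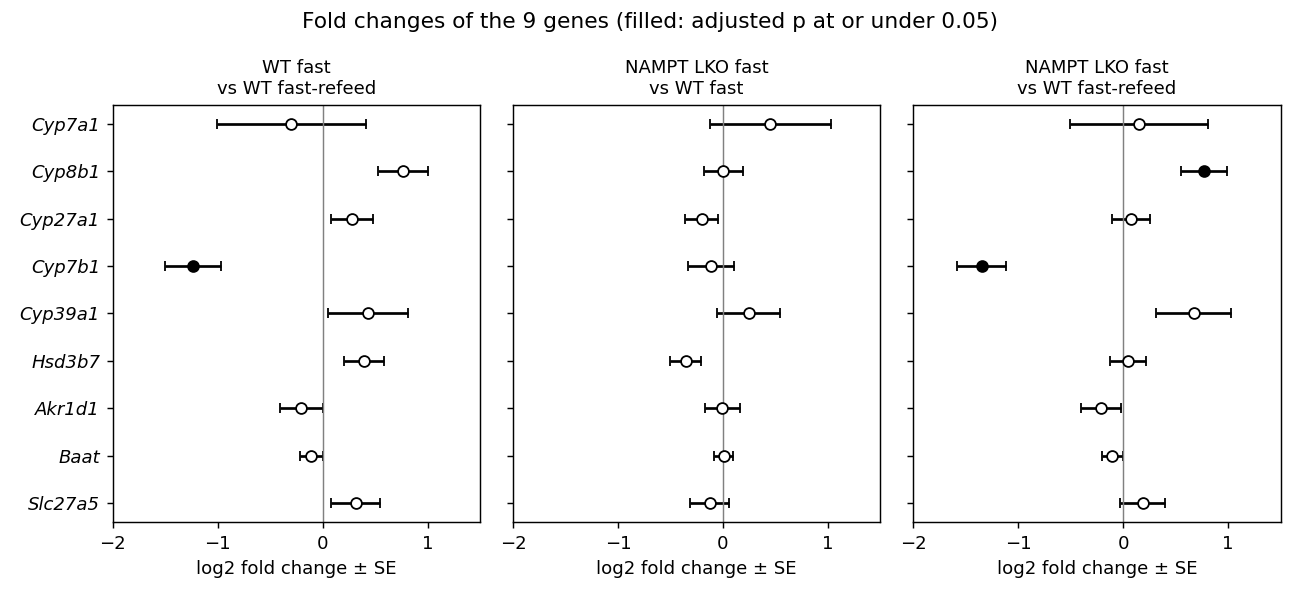
Log2 fold change (horizontal axis) with its SE for each of the 9 genes (vertical axis) in the 3 comparisons, from edgeR's quasi-likelihood fit of all 10 libraries, with filled points for genes called. Cyp7b1 lies at -1.24 and -1.35 in the comparisons with refed livers, Cyp8b1 at 0.77 in both with only the second called, and no point is filled for NAMPT LKO fast vs WT fast.

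Loss of hepatocyte NAMPT was then examined in fasted livers. None of the 9 genes was called in NAMPT LKO fast vs WT fast by edgeR's quasi-likelihood test, by edgeR's exact test, by DESeq2 or by voomWithQualityWeights, and 1 had an unadjusted p under 0.05 in each of these 4, where 6.03% of all genes did in the first. Of all genes tested, 0.00744% were called, a single gene, Nampt (log2 fold change -2.81, SE 0.22, adjusted p = 0.00102). For 0 of the 9 genes did the groups fail to overlap, against 3.99% of all genes. The median log2 fold change of the 9 was -0.0063, and that of all genes was 0.00025.

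Hsd3b7 had the lowest p of the 9. It was 317, 277, 314, 347 and 211 CPM in NAMPT LKO fast livers, against 338 to 398 CPM in WT fast livers. Mouse 4 of the knockout group lay inside the WT range and the other 4 below it, with a log2 fold change of -0.35 (SE 0.15, adjusted p = 0.827). Without mouse 5 it was -0.26 (adjusted p = 0.590, in a range of 0.505 to 0.989 over the alternatives).

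Cyp8b1 was 1165, 1079, 1184, 821 and 720 CPM in NAMPT LKO fast livers, averaging 994 ± 211 CPM (SD, n = 5), and the WT fast mean was 992 ± 198 CPM (SD, n = 3). The log2 fold change was 0.0029 (SE 0.19, adjusted p = 0.999). Cyp7b1 was 58.5, 61.1, 66.9, 80.8 and 35.1 CPM, a mean of 60.5 ± 16.6 CPM against 65.3 ± 8.75 CPM (log2 fold change -0.11, SE 0.22, adjusted p = 0.931). Without mouse 5 the log2 fold changes were 0.099 and 0.031. The fasted genotypes overlapped in both genes, and mouse 5 was below every WT fast liver in each.

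Cyp7a1 was 330, 238, 129, 101 and 536 CPM in NAMPT LKO fast livers. The lowest and highest differed 5.31-fold, and the WT fast values (58.3 to 328 CPM) covered all but the top 2 (log2 fold change 0.45, SE 0.58, adjusted p = 0.887). Without mouse 5, the highest, the log2 fold change was 0.036. Of the others, Cyp27a1 (log2 fold change -0.20, SE 0.16), Slc27a5 (-0.13, SE 0.19) and Cyp39a1 (0.24, SE 0.30) had adjusted p of 0.845, 0.905 and 0.883, and Akr1d1 (-0.0063, SE 0.17) and Baat (0.0069, SE 0.09) lay closest to 0 beside Cyp8b1. Without mouse 5, Cyp39a1 was at -0.011 and Slc27a5 at 0.0081, on the other side of 0, Cyp27a1 was at -0.10, Akr1d1 at -0.14 and Baat at 0.030. With SEs of this size, differences between the genotypes could go uncalled even when they were not small. Spp1, a marker of the bile duct lining, had a log2 fold change of 1.64 (SE 0.22) and was not called (adjusted p = 0.0603).

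Summed levels of bile duct markers did not overlap between NAMPT LKO fast and WT fast livers. Those of stellate, Kupffer and endothelial cell markers overlapped. Krt19, Krt7, Epcam, Sox9 and Spp1, which mark the bile duct lining, summed to 34.0 to 54.5 CPM in NAMPT LKO fast livers, 15.2 to 22.3 CPM in WT fast livers and 20.1 to 22.4 CPM in refed livers. None of the 5 was called against WT fast livers (Spp1 log2 fold change 1.64, adjusted p = 0.0603), and 2 were called against refed livers (Spp1, 1.55, adjusted p = 0.00427, and Epcam, 1.67, adjusted p = 0.0400). Stellate cell markers summed to 203 to 271 CPM in NAMPT LKO fast, 170 to 222 CPM in WT fast and 171 to 173 CPM in refed livers. Among them Col1a1, a collagen chain, was 2.01 to 8.59 CPM in NAMPT LKO fast livers and 1.25 to 1.67 CPM in WT fast livers. Its log2 fold change was 1.79 (adjusted p = 0.761) against WT fast livers, and it was called against refed livers (2.47, adjusted p = 0.0224). Lrat, Reln, Des and Dcn were at 0.15, 0.11, 0.061 and 0.26 against WT fast livers. Against refed livers they were at -0.29, 0.31, 0.18 and 0.50, and none was called in either comparison. Of the other marker genes, none was called against WT fast livers, and against refed livers Kdr of endothelial cells was called higher (0.37, adjusted p = 0.0475) and Cela1 lower (-0.66, adjusted p = 0.0363) in NAMPT LKO fast livers. Kupffer cell markers summed to 171 to 330 CPM in WT fast and 131 to 152 CPM in refed livers. In NAMPT LKO fast livers they summed to 116 to 264 CPM, and 0 of 5 were called in any comparison. The part of these markers in the results on the 9 genes was not tested. In whole liver RNA, fewer cells of a type and less RNA per cell cannot be told apart.

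In the third comparison, of NAMPT LKO fast with WT fast-refeed livers, genotype and feeding differ together and cannot be told apart. The refed libraries are the same as in the first comparison, so the 2 are not independent. Of the 9 genes, 2 were called, Cyp7b1 lower and Cyp8b1 higher, where 11.2% of all genes were called. The same 2 genes did not overlap between groups, where 33.5% of all genes did not. The median log2 fold change of the 9 was 0.076, and that of all genes was 0.032.

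All 5 NAMPT LKO fast livers lay below both refed livers in Cyp7b1, 2.54-fold lower by the fit (log2 fold change -1.35, SE 0.24, adjusted p = 0.00529). The call was lost without WT fast-refeed mouse 2 (adjusted p = 0.0983) and held in the other 18 of 19 alternatives (6.35e-06 to 0.0983 over all 19), including without NAMPT LKO fast mouse 5, whose 35.1 CPM was the lowest value (log2 fold change -1.20, adjusted p = 0.000780).

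All 5 NAMPT LKO fast livers lay above both refed livers in Cyp8b1, 1.71-fold higher by the fit (log2 fold change 0.77, SE 0.22, adjusted p = 0.0477). This call lies at the threshold, and it held in 10 of 19 alternatives. It was lost without NAMPT LKO fast mouse 1 (adjusted p = 0.0817), 2 (0.0971) or 3 (0.0883), without WT fast mouse 2 (0.0704) and without WT fast-refeed mouse 1 (0.261) or 2 (0.301), as well as with library size scaling alone, with filterByExpr and in the fit of the 2 groups alone. Without NAMPT LKO fast mouse 5 the log2 fold change was 0.87 (adjusted p = 0.00931, in a range of 0.000572 to 0.301 over the alternatives). Slc27a5 was then called as well (log2 fold change 0.32, adjusted p = 0.0463), in a fit that called 21.2% of all genes, whereas with all libraries its log2 fold change was 0.19 (adjusted p = 0.639). Cyp7a1, at 0.15 with all libraries, was at -0.26 without this mouse and was not called in either fit.

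**Figure D3:**
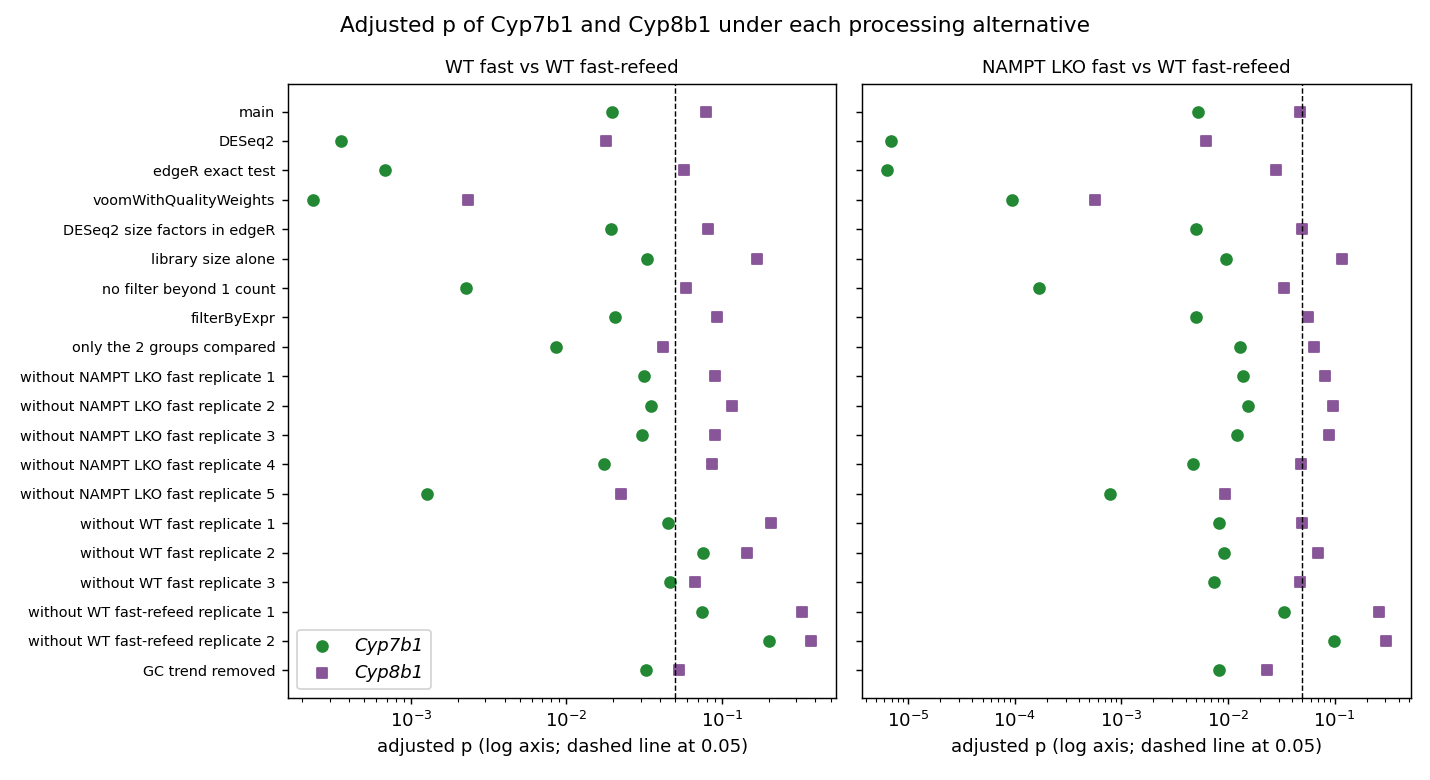
Adjusted p (horizontal log axis, dashed line at 0.05) of Cyp7b1 and Cyp8b1 with the reported fit and under 19 alternatives (vertical axis) in the comparisons with refed livers. Cyp7b1 crosses the line under 3 alternatives in WT fast vs WT fast-refeed and 1 in NAMPT LKO fast vs WT fast-refeed, and Cyp8b1 lies on both sides of it in each.

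The balance between pathway enzymes was compared within each library as a ratio of per-length levels, which any scaling of a whole library leaves unchanged. The ratio of Cyp8b1 to Cyp7b1 was 4.76 and 3.76 in WT fast-refeed livers, 18.1, 19.0 and 13.6 in WT fast livers and 22.1, 19.6, 19.7, 11.3 and 22.8 in NAMPT LKO fast livers. All 8 fasted livers exceeded both refed livers, and the fasted genotypes overlapped. This pair was chosen after both genes' values were seen, so the ratio is a description and was not tested. The ratio of Cyp7a1 to Cyp7b1 was 0.858 and 0.769 in refed livers, 2.31, 1.84 and 0.457 in WT fast livers and 2.93, 2.02, 1.00, 0.648 and 7.93 in NAMPT LKO fast livers, and its groups overlapped.

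**Figure D4:**
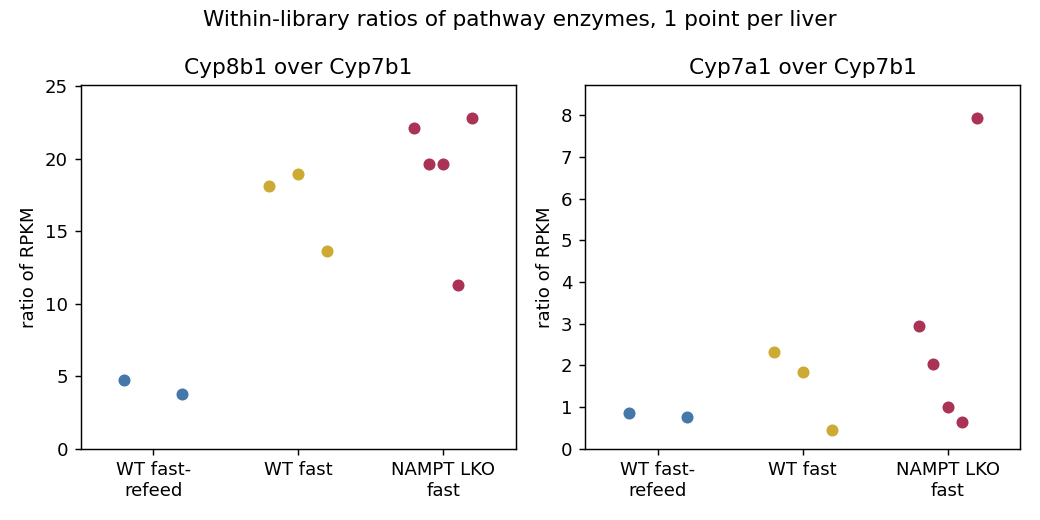
Ratio of RPKM values (vertical axis, from 0) of Cyp8b1 to Cyp7b1 (left) and of Cyp7a1 to Cyp7b1 (right), 1 point per liver, by group. The left ratio is 3.76 and 4.76 in refed livers and 11.3 to 22.8 in all 8 fasted livers, and the right ratio overlaps between groups.

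NAMPT LKO fast mouse 5 held the highest or the lowest value of its group in all 9 genes. Relative to the mean of the other 4 NAMPT LKO fast livers on the log2 scale, it was higher in Cyp7a1 by 1.58, Cyp39a1 by 1.00 and Akr1d1 by 0.58. It was lower in Cyp7b1 (-0.92), Slc27a5 (-0.85), Cyp27a1 (-0.57), Hsd3b7 (-0.57), Cyp8b1 (-0.55) and Baat (-0.12). The median absolute departure over the 9 genes was 0.58, and over all tested genes 0.39 in mouse 5 and 0.14 to 0.20 in the other 4. The GC content of the 3 genes that were higher was 39.7% (Cyp7a1), 43.7% (Cyp39a1) and 40.9% (Akr1d1). Of the 6 that were lower, Cyp27a1, Hsd3b7, Cyp8b1 and Slc27a5 had 53.1 to 54.8%, Baat 44.9% and Cyp7b1 42.5%. After removal of the GC trend of every library, an alternative chosen after seeing the data, the calls stayed Cyp7b1 alone in WT fast vs WT fast-refeed, none in NAMPT LKO fast vs WT fast, and Cyp7b1 and Cyp8b1 in NAMPT LKO fast vs WT fast-refeed.

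**Figure D5:**
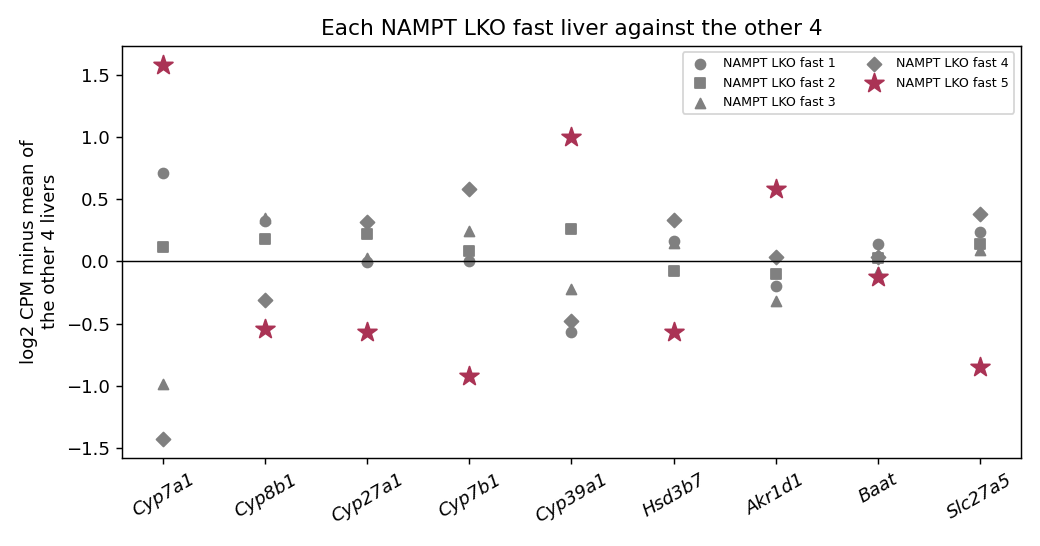
Log2 CPM of each NAMPT LKO fast liver minus the mean of the other 4 (vertical axis) for the 9 genes (horizontal axis), with mouse 5 as a star. Mouse 5 is the top value for Cyp7a1, Cyp39a1 and Akr1d1 (1.58, 1.00 and 0.58) and the bottom value for the other 6 genes.

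The genes nearest to Cyp8b1, Cyp7b1 and Cyp7a1 were found by the mean absolute difference of centred log2 CPM over the 10 libraries, among 9151 genes whose mean level reached 5 CPM. Arhgef40 (0.066), Wrnip1 (0.10) and Slc22a5, a carnitine transporter (0.12), were nearest to Cyp8b1, against a median of 0.38 over the candidates. Pde12 (0.13), Cdk2ap2 (0.14) and Sec61b, a subunit of the protein translocon (0.14), were nearest to Cyp7b1, against a median of 0.48. For Cyp7a1 the nearest gene, Gm13341, was at 0.42, against a median of 0.73. The measure also counts differences in the size of the variation. It therefore does not show whether a gene moved in step with Cyp7a1 over a smaller range.

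The wider pathway was read from 3 lists. Among 15 tested genes for other synthesis steps, 2 were higher and 1 lower in WT fast vs WT fast-refeed livers, as many as in NAMPT LKO fast vs WT fast-refeed livers, where 7.04% and 11.2% of all genes were called. Cyp2c70, which makes the muricholic acids of rodents, was 93.0 and 127 CPM in refed livers, 10.4, 23.1 and 21.1 CPM in WT fast livers and 16.3 to 35.8 CPM in NAMPT LKO fast livers. No fasted liver reached the refed values (log2 fold change -2.59, SE 0.38, adjusted p = 0.00365 in WT and -2.15, SE 0.33, adjusted p = 0.00270 in NAMPT LKO fast livers). Slc27a2, an acyl-CoA synthetase for very long chain fatty acids and bile acid precursors, was 0.57 higher on the log2 scale in WT fast livers (adjusted p = 0.0441) and Por, the electron donor of microsomal P450 enzymes, 0.77 higher (adjusted p = 0.0338). Against the same refed livers, the NAMPT LKO fast differences were 0.64 (adjusted p = 0.0153) and 0.72 (adjusted p = 0.0264). The median log2 fold change of the list was 0.14 in WT fast and 0.096 in NAMPT LKO fast vs refed livers.

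Of 18 regulators, 2 were called in WT fast vs WT fast-refeed livers (7.04% of all genes), Nr1i3 (CAR, a xenobiotic receptor) higher by 0.72 (adjusted p = 0.0392) and Dbp, a clock output factor, at -1.93 (adjusted p = 0.0349). In NAMPT LKO fast vs WT fast-refeed livers 4 were called (11.2% of all genes). These were Ppargc1a, a coactivator induced by fasting (log2 fold change 1.76, adjusted p = 0.0236), Ppara, the fatty acid receptor (0.53, adjusted p = 0.0454), Nr1h3 (LXRα, an oxysterol receptor, -0.60, adjusted p = 0.00458) and Dbp (-1.72, adjusted p = 0.0243). Nr1h4 (FXR) and its target Nr0b2 (SHP) were not called in any comparison. Nr1h4 had log2 fold changes of 0.10, 0.0010 and 0.11. Those of Nr0b2 were -0.31, -0.084 and -0.39 (SE 0.58, 0.47 and 0.53). Nr0b2 spread from 6.51 to 28.9 CPM in WT fast and from 8.04 to 32.4 CPM in NAMPT LKO fast livers. A change of Nr0b2 was thus hard to detect. List medians were 0.0040 in WT fast and -0.027 in NAMPT LKO fast vs refed livers.

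Among 11 tested transporters of bile acids and biliary lipids, 2 were called in WT fast and 3 in NAMPT LKO fast vs refed livers, beside the same 7.04% and 11.2% of all genes. Higher in WT fast livers were Abcb4, the phosphatidylcholine exporter (0.77, adjusted p = 0.0162), and Abcg8, a subunit of the sterol exporter (1.45, adjusted p = 0.0105). Abcg8 was 30.6 and 28.7 CPM in refed livers and 80.5, 83.8 and 78.8 CPM in WT fast livers. In NAMPT LKO fast vs refed livers Abcb4 (1.73-fold, adjusted p = 0.00762) and Abcg8 (2.63-fold, adjusted p = 0.00643) were higher and Atp8b1, a phospholipid flippase, was lower (-0.51, adjusted p = 0.0441). The canalicular bile acid pump Abcb11 (-0.16, adjusted p = 0.570, in WT) and the uptake carrier Slc10a1 (0.025, adjusted p = 0.942) did not pass the test. List medians were 0.37 and 0.22. Ch25h, Slc51a and Slc51b, at most 0.620 CPM in any library, were not tested.

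When a refed mouse was left out, most calls of these 3 lists were lost. The number of genes called over all tested genes fell sharply in the same fits. Of the 7 calls in WT fast vs WT fast-refeed livers, 6 were lost without either refed mouse, and Cyp2c70 kept its call without each (adjusted p = 0.0184 and 0.0484). Of the 10 in NAMPT LKO fast vs WT fast-refeed livers, all 10 were lost without at least 1 of them, Cyp2c70 without refed mouse 2 (adjusted p = 0.0505) and Dbp without refed mouse 1 (adjusted p = 0.398). The direction held in each of these fits, and Dbp varied most, from -2.46 to -1.10 on the log2 scale in WT fast livers and from -2.26 to -0.89 in NAMPT LKO fast livers. Leaving out a fasted mouse also ended calls for Slc27a2, Por, Nr1i3 and Dbp in WT fast vs WT fast-refeed livers. In NAMPT LKO fast vs WT fast-refeed livers it ended those for Por, Ppara and Atp8b1.

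In NAMPT LKO fast vs WT fast livers, 0 genes of the 3 lists were called by edgeR's quasi-likelihood test, DESeq2, edgeR's exact test or voomWithQualityWeights, and 1 of the 44 had an unadjusted p under 0.05 in the first of these, where 6.03% of all genes did. It was Nr1i3 (log2 fold change -0.41, SE 0.14, adjusted p = 0.798). The lowest p of the other lists belonged to Cyp2a12 (0.22, adjusted p = 0.837) and Abcc3 (-0.25, adjusted p = 0.839). List medians were 0.037 for other synthesis steps, -0.015 for regulators and 0.017 for transporters.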

How the data were processed

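Poly(A)-selected liver RNA of 10 mice was sequenced. Per the submitters' processing notes and the labels, the authors aligned reads with STAR 2.5.1a to GRCm38 and counted them per Ensembl gene with featureCounts 1.4.6-p5, and the study's methods name other versions. Whether counting used strand is not given in the sources used here. The deposited counts were used without change, and the deposited CPM and RPKM values, which scale those counts by library total and exonic length, matched them in all 413880 values. Symbols came from GENCODE for 40340 of 41388 genes. From there, rRNA genes were dropped, genes exceeding 1 CPM in any library were kept, and TMM-normalised counts were fitted with the quasi-likelihood method of edgeR 4.0.16 in R 4.3.3, with all 10 libraries in 1 fit and 1 mean per group. Adjusted p-values are Benjamini-Hochberg over 13444 genes. CPM values in the text are TMM-normalised, and log2 values used a prior count of 0.5. P-values set each group difference against the spread between mice, which was estimated over all groups together.

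The 9 genes and the lists were chosen with earlier results of these data known. Named genes were the 9, Nampt, the genes of the other lists called in any comparison or with the lowest p in one, and the 3 nearest to each of Cyp7a1, Cyp8b1 and Cyp7b1. Nr1h4, Nr0b2, Abcb11 and Slc10a1 were added after their values were seen. Alternatives were DESeq2 1.42.0, edgeR's exact test, voomWithQualityWeights of limma 3.58.1, other scalings and filters, the 2 compared groups alone, a replicate block and leaving out every library in turn. The study's methods name voomWithQualityWeights, and its figure legends name edgeR's exact test. Removal of GC trends (loess span 0.5) was chosen after seeing the data.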

Additional observations from a re-analysis of the deposited data

Results flagged for a closer look

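In the NAMPT LKO fast group, 2 of 35 quantities examined had 1 library farther from the other 4 than Dixon's 95% limit (0.71 of the range), where chance flags about 1 in 20. NAMPT LKO fast mouse 5 had 2188 CPM of Slc27a2, the acyl-CoA synthetase, against 1714 to 1770 CPM in the other 4, a gap of 0.881 of the range. The same mouse had 21.1% of its counts on the mitochondrial genome, a gap of 0.770 of the range. None of the 9 bile acid genes passed this limit, the nearest being Slc27a5 (gap 0.697) and Akr1d1 (gap 0.668), also in mouse 5.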

How the results depend on the processing

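The cause of each change below was not tested. In WT fast vs WT fast-refeed livers, 946 genes were called, 1646 with DESeq2, 3331 with voomWithQualityWeights, 1649 with the 2 groups alone, 1435 with GC trends removed and 107 to 2231 with 1 library left out. Of the 9 genes 1 was called, 2 with DESeq2 and with the 2 groups alone (Cyp7b1 and Cyp8b1), 5 with voomWithQualityWeights (these with Cyp27a1, Hsd3b7 and Slc27a5), and 0 to 3 with 1 library left out. In NAMPT LKO fast vs WT fast livers, 1 gene was called, 24 with DESeq2, 24 with the exact test, 2 with library size alone, 17 without the filter, 3 with filterByExpr, 3 with GC trends removed and 1 to 2 with 1 library left out, and 0 of the 9 under any of them. In NAMPT LKO fast vs WT fast-refeed livers, 1510 genes were called, 4281 with voomWithQualityWeights and 227 to 2835 with 1 library left out. Of the 9 genes 2 were called, 1 (Cyp7b1) with library size alone, filterByExpr or the 2 groups alone, 3 with voomWithQualityWeights (Akr1d1 added) and 0 to 3 with 1 library left out. With library size alone the share of called genes that were higher went from 38.1% to 25.7% in WT fast and from 41.4% to 26.1% in NAMPT LKO fast vs refed livers.

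Signs turned only for uncalled log2 fold changes. Against WT fast these were Cyp7a1 (-0.020), Cyp7b1 (0.031) and Cyp39a1 (-0.028) with voomWithQualityWeights, Cyp8b1 with library size alone (-0.0096), no filter (-0.0079) and filterByExpr (-0.000060), Akr1d1 with the 2 groups alone (0.0026), and Baat with library size alone (-0.018), no filter (-0.0046) and GC trends removed (-0.041). Against WT fast-refeed they were Cyp7a1 with voomWithQualityWeights (-0.32) and, with library size alone, Cyp27a1 (-0.0027) and Hsd3b7 (-0.035). With 1 library left out, values against WT fast ranged from -0.12 to 0.17 for Cyp8b1, -0.24 to 0.031 for Cyp7b1, -0.011 to 0.60 for Cyp39a1, -0.14 to 0.10 for Akr1d1, -0.023 to 0.030 for Baat and -0.20 to 0.0081 for Slc27a5. NAMPT LKO fast vs WT fast-refeed ranged from -0.26 to 0.36 for Cyp7a1 and -0.025 to 0.14 for Hsd3b7, and WT fast vs WT fast-refeed from -0.91 to 0.13 for Cyp7a1 and -0.11 to 0.55 for Nampt.

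Libraries numbered 1 to 3 in both fasted groups gave 0 called genes with the number as a replicate block and 0 without it, with Nampt at -2.78 (adjusted p = 0.106) and -2.87 (adjusted p = 0.269). Deviations of log2 levels from the group mean correlated at 0.0901, 0.0934 and 0.0886 between same-numbered libraries, and at -0.166 to 0.0433 between the others. Correlations this small over 3 numbers do not show whether the libraries were paired. Depth gave each of the 9 genes at least 1099 counts in every library, and the refed group had 2 mice.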
